A study of Mus musculus with 4 samples.

Results

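The transcripts of the HIF-1 pathway and of the genes that feed back on it were compared between Tc17 cells and CTLs. The pathway was represented by 10 genes: *Hif1a* and *Arnt*, which encode the subunits of the factor, *Vhl*, the prolyl hydroxylase genes *Egln1*, *Egln2* and *Egln3*, and the target genes *Vegfa*, *Bnip3*, *P4ha1* and *Pdk1*. They were found by their symbols in the platform annotation of the value table, each was read at its brightest probe set, and all 10 of 10 were among the 19938 genes with a probe set of their own. Spleens and lymph nodes of C57BL/6 mice were the source of the CD8+ T cells, which had been isolated by negative selection and cultured for 2 days. Tc17 cells, the IL-17-producing type, were grown with IL-2, IL-6, TGF-β and an antibody against IFN-γ, and CTLs (cytotoxic T lymphocytes) with IL-2 and the same antibody but neither IL-6 nor TGF-β. Each group had 2 biological replicates, with 1 oligonucleotide array each and 4 arrays in all. All mice were wild type and, per the study's methods, matched for age and sex. Those methods describe priming of Tc17 cells with antibodies against CD3 and CD28, and do not describe CTL cultures. The oxygen level of the cultures is not in the labels. The labels also do not say whether replicates came from separate animals, so that p-values here reflect only how far these samples scatter, which may be technical.

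HIF-1 is a dimer whose α subunit is made all the time and is controlled mainly by its destruction. In the presence of oxygen and iron, EGLN enzymes hydroxylate prolines of HIF-1α, the VHL ubiquitin ligase binds the hydroxylated protein, and the proteasome degrades it. In T cells HIF-1α also builds up under normal oxygen after activation of the antigen receptor, and it is known for its part in glycolysis and in the type 17 program of CD4+ cells. The arrays measured transcripts, and HIF-1α protein was not measured. A dimer that escapes destruction binds the core motif ACGTG or GCGTG near its targets, among which are *Egln1* and *Egln3* themselves, so that the pathway induces its own brakes.

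The 250 bases before the annotated start of a gene were searched for this motif on both strands, to show what lies in front of the genes compared here. The promoters of *P4ha1* and *Pdk1*, which passed the test between the groups, and of *Egln1* and *Egln3*, hydroxylase genes whose differences had opposite signs, are printed from RefSeq (GRCm38.p6) in the direction of transcription. They lie at chr10:59323046-59323295 on the plus strand (*P4ha1*), chr2:71872974-71873223 on the plus strand (*Pdk1*, the first of its starts in the table), chr8:124949255-124949504 on the minus strand (*Egln1*) and chr12:54203875-54204124 on the minus strand (*Egln3*). Capitals mark ACGTG and GCGTG and their reverse complements CACGT and CACGC.
P4ha1: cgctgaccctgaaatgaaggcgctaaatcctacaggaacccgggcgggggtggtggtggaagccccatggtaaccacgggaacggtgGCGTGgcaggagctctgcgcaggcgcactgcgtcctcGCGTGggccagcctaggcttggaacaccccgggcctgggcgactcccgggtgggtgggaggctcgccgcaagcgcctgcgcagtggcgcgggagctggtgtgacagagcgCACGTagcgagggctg
Pdk1: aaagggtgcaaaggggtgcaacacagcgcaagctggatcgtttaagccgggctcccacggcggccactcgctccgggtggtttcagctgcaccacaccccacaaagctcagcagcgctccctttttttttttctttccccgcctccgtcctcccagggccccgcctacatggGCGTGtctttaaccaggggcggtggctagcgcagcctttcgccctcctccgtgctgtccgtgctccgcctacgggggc
Egln1: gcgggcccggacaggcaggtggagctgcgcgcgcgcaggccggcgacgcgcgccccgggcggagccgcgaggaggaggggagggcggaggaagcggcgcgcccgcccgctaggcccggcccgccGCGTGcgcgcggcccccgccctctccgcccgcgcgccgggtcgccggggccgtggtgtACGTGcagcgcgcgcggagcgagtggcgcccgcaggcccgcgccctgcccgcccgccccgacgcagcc
Egln3: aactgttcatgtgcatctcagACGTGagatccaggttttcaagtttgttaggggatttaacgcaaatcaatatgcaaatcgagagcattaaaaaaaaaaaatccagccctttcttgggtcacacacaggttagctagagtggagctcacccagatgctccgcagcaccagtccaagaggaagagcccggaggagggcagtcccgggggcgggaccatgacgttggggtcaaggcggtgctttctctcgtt
*P4ha1* had 3 matches, *Egln1* had 2, and *Pdk1* and *Egln3* had 1 each. Over all 10 genes, 13 windows were in the table (*Egln2*, *Vegfa* and *Pdk1* have more than 1 start), and 10 of them held a match, against 38.6% of all 32851 windows of this length. *Vhl* was the gene with no match in any window. *Hif1a* and *Bnip3* each held a CACGTG, which is ACGTG on both strands at once and is also the E-box motif. A match says only that these letters are present, and the share was not adjusted for base composition.

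The labels were checked against the genes that define the cultures. *Il17f* was at 9.22 and 8.70 on the Tc17 arrays, against 2.94 and 3.35 on the CTL arrays, and *Ifng* was at 5.91 and 6.24 on the Tc17 arrays, against 10.57 and 10.08 on the CTL arrays. All array values are RMA intensities, taken as log2, so that a difference of 1 is a doubling, and levels are given by gene because probe sets cannot be ranked against each other. Array medians lay between 3.18 and 3.20. Across the 14953 genes tested, arrays of a group correlated at 0.993 in Tc17 cells and at 0.993 in CTLs, and arrays of different groups at 0.967 to 0.973, over genes, which are not independent replicates. Of 7 markers of CD8+ T cells 6 were measured, all between 7.93 and 10.66. Of these, 4 rose and 1 fell in Tc17 cells, which is 83.3% called against 15.7% of all genes. *Cd3g* differed by 1.00, *Cd3e* by 0.86, *Cd3d* by 0.73, *Cd8a* by 0.67, *Cd8b1* by 0.20 and *Cd2* by -0.46. The 4 rises were larger than the difference of any of the 10 pathway genes. Summed values were 56.70 to 57.03 on Tc17 arrays and 53.67 to 54.05 on CTL arrays. Of 30 markers of other cell types 27 were measured, between 1.92 and 5.16, with summed values of 79.03 to 79.46 on Tc17 arrays and 78.20 to 79.97 on CTL arrays, and 19 of them lay under the lowest array median on all arrays. Of the 27, 13 were too dim to be tested. Among the rest, *Pecam1* rose (0.57 ± 0.13, limma adjusted p = 0.0101) and *Zbtb7b* fell (by 0.63 ± 0.14, limma adjusted p = 0.00923), where 15.7% of all genes tested passed. The part of the markers in the results was not tested, and in bulk RNA fewer cells of a type and less RNA per cell cannot be told apart.

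The transcripts of this pathway differed by at most 1.46-fold between Tc17 cells and CTLs. The log2 differences of the 10 genes, Tc17 minus CTL, ran from -0.41 (*Vegfa*) to 0.54 (*P4ha1*). *P4ha1* and *Pdk1* rose in Tc17 cells at an adjusted p under 0.05 (limma, Benjamini-Hochberg over all genes tested), and none of the 10 fell. Of all genes tested, 8.22% passed the test as higher and 7.44% as lower, and the 2 of 10 higher and 0 of 10 lower genes are to be read against these shares. The shares depend on how many dim genes are kept. With the filter at the median, 1285 of 9969 genes passed as higher and 1183 as lower, and again 2 of the 10 as higher. An unadjusted p under 0.05 was found for 5 of the 10 genes, against 27.1% of all genes. All 10 passed the filter on dim genes.

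The 10 genes did not overlap between the groups, 8 of them higher and 2 (*Egln3* and *Vegfa*) lower on both Tc17 arrays than on both CTL arrays. This count takes *Bnip3* at its brighter probe set, whose assignment is uncertain, and the groups overlapped at the dimmer one. Over all genes tested, the groups did not overlap for 54.4%, with 29.6% higher and 24.8% lower in Tc17 cells. The median difference of the 10 genes was 0.27 and the median of its size 0.37, against 0.02 and 0.17 over all genes tested. Both medians of the 10 take *Bnip3* at its brighter probe set. The 10 genes lay above the array medians, whereas the genes tested include dim ones, whose differences are compressed. A comparison with genes of like brightness was not made.

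**Figure D1:**
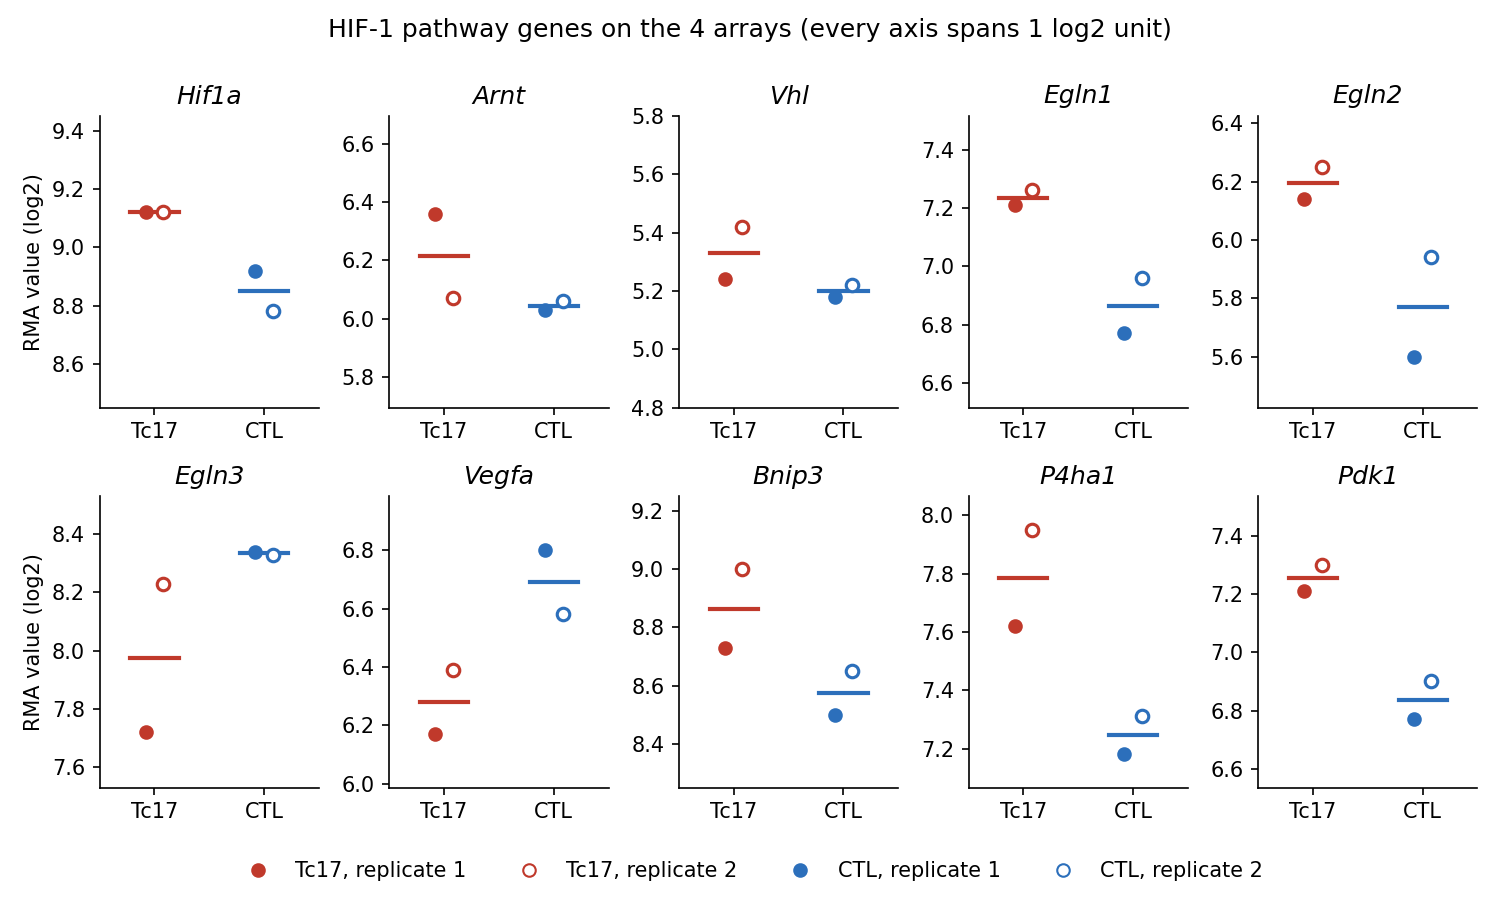
RMA values (vertical axes, log2) of the 10 genes on each array, with Tc17 in red and CTL in blue, replicate 1 filled, replicate 2 open, and bars for group means. *Egln3* (Tc17 mean 7.97, CTL mean 8.33) and *Vegfa* (Tc17 mean 6.28, CTL mean 6.69) are lower in Tc17 cells, the other 8 genes are higher, and *Arnt* (6.07 against 6.06) and *Vhl* (5.24 against 5.22) come closest to overlap.

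The genes of the factor itself did not pass the test. *Hif1a*, which encodes the oxygen-regulated α subunit, was at 9.12 and 9.12 on the Tc17 arrays, against 8.92 and 8.78 on the CTL arrays. The Tc17 arrays held one and the same deposited value for it, as they did for 26 rows of the table, so that the zero spread is not a measure of its precision. The difference was 0.26 ± 0.13 (log2, ± SE of the fit, n = 2 per group), a 1.20-fold higher value in Tc17 cells, with a limma adjusted p of 0.216. Its 95% interval, from 0.986-fold to 1.46-fold, sets the size of a change in either direction that these arrays leave possible.

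*Arnt* encodes the partner subunit, which is not regulated by oxygen. It was at 6.36 and 6.07 on the Tc17 arrays, against 6.03 and 6.06 on the CTL arrays, so that Tc17 replicate 1 alone stood clearly above the CTLs. The difference was 0.17 ± 0.14 (limma adjusted p = 0.487), and it was 0.03 without Tc17 replicate 1. *Vhl*, the substrate-binding subunit of the ubiquitin ligase, was at 5.24 and 5.42 on the Tc17 arrays, against 5.18 and 5.22 on the CTL arrays. It differed by 0.13 ± 0.13 (limma adjusted p = 0.588), the smallest difference among the 10 genes.

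The hydroxylase genes were split in direction, and none of the 3 passed the test. *Egln1* encodes PHD2, the main oxygen sensor for HIF-1α in most cells, and is itself induced by HIF-1. It was at 7.21 and 7.26 on the Tc17 arrays, against 6.77 and 6.96 on the CTL arrays, with a difference of 0.37 ± 0.13 (limma adjusted p = 0.0887). The groups were separated by 0.25 at their nearest arrays. *Egln2*, which encodes PHD1 and is not generally induced by hypoxia, was at 6.14 and 6.25 on the Tc17 arrays, against 5.60 and 5.94 on the CTL arrays. The difference of 0.42 ± 0.15 (limma adjusted p = 0.0794) depended on which CTL array was used, being 0.59 and past the threshold without CTL replicate 2 (limma adjusted p = 0.0381) and 0.25 without CTL replicate 1.

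*Egln3* encodes PHD3 and is among the transcripts that HIF-1 induces most strongly in many cells. Here it was at 7.72 and 8.23 on the Tc17 arrays, against 8.34 and 8.33 on the CTL arrays. Tc17 replicate 2 was near the CTLs and Tc17 replicate 1 well below them. The difference was -0.36 ± 0.17 (limma adjusted p = 0.188). It was -0.11 without Tc17 replicate 1, and -0.62 and past the threshold without Tc17 replicate 2 (limma adjusted p = 0.0340). Whether *Egln3* differs from *Egln1* and *Egln2* in its response was not tested.

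Among the target genes, *P4ha1* and *Pdk1* rose and *Vegfa* and *Bnip3* did not pass the test. *P4ha1*, the catalytic α subunit of collagen prolyl 4-hydroxylase, was at 7.62 and 7.95 on the Tc17 arrays, against 7.18 and 7.31 on the CTL arrays. Both Tc17 arrays lay above both CTL arrays, by 0.31 at the nearest and 0.78 at the farthest pair. The rise of 0.54 ± 0.15 was 1.46-fold (95% interval 1.16-fold to 1.83-fold, limma adjusted p = 0.0270). The call was lost without Tc17 replicate 2 (0.38, limma adjusted p = 0.213), CTL replicate 1 (0.48, limma adjusted p = 0.136) or CTL replicate 2 (0.61, limma adjusted p = 0.0543).

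*Pdk1* encodes pyruvate dehydrogenase kinase 1, which keeps pyruvate out of the mitochondrial citrate cycle. It was at 7.21 and 7.30 on the Tc17 arrays, against 6.77 and 6.90 on the CTL arrays. The 4 differences between a Tc17 and a CTL array ran from 0.32 to 0.53, a narrower span than that of *P4ha1*. The rise of 0.42 ± 0.13 was 1.34-fold (95% interval 1.10-fold to 1.64-fold, limma adjusted p = 0.0470). This p lies just under the threshold, and the call was lost without any one of the 4 arrays (0.36 to 0.49, limma adjusted p = 0.0807 to 0.214) and with the replicate number as a block (limma adjusted p = 0.0537).

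*Vegfa*, which encodes the angiogenic growth factor and is a classical HIF-1 target, went the other way. It was at 6.17 and 6.39 on the Tc17 arrays, against 6.80 and 6.58 on the CTL arrays, with a difference of -0.41 ± 0.14 (1.33-fold lower in Tc17 cells, limma adjusted p = 0.0799). Every Tc17 array was below every CTL array, by 0.18 to 0.63.

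**Figure D2:**
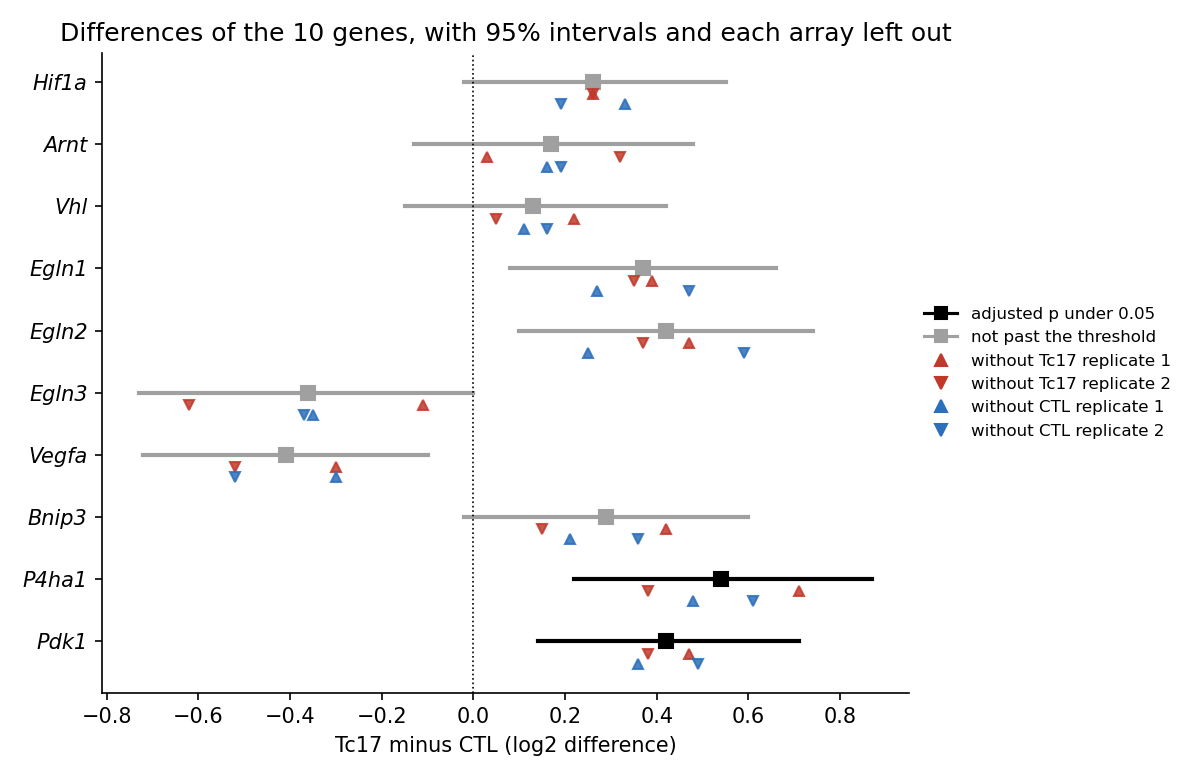
Log2 differences of the 10 genes, Tc17 minus CTL (horizontal axis), as squares with 95% intervals, black at an adjusted p under 0.05 and grey otherwise, and triangles for the same difference with an array left out. *P4ha1* (0.54) and *Pdk1* (0.42) are black, and *Egln3* moves between -0.62 and -0.11 with the Tc17 array used. No triangle changes sign, which groups without overlap do not allow.

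*Bnip3* encodes a mitochondrial protein that promotes removal of mitochondria by autophagy, and its value depended on the probe set. Its brighter probe set was at 8.73 and 9.00 on the Tc17 arrays, against 8.50 and 8.65 on the CTL arrays (0.29 ± 0.14, limma adjusted p = 0.222). The dimmer one was at 7.68 and 7.71 on the Tc17 arrays, against 7.78 and 7.50 on the CTL arrays, where the groups overlapped (0.06 ± 0.14, limma adjusted p = 0.861). Neither passed the test. Probe set identifiers follow the chromosomes on this array. Of the 20 annotated neighbors of the dimmer probe set that could be placed, 20 were genes of chromosome 7, where *Bnip3* lies. Of the 13 neighbors of the brighter one, 0 were on chromosome 7 and 13 on chromosome 14, although the annotation gives it to *Bnip3*. Whether the brighter probe set measures a copy of the gene elsewhere was not tested, and its value is uncertain for that reason. *Bnip3* was the member with 2 probe sets, and each probe set of the other 9 genes had most of its neighbors on the chromosome of its gene.

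**Figure D3:**
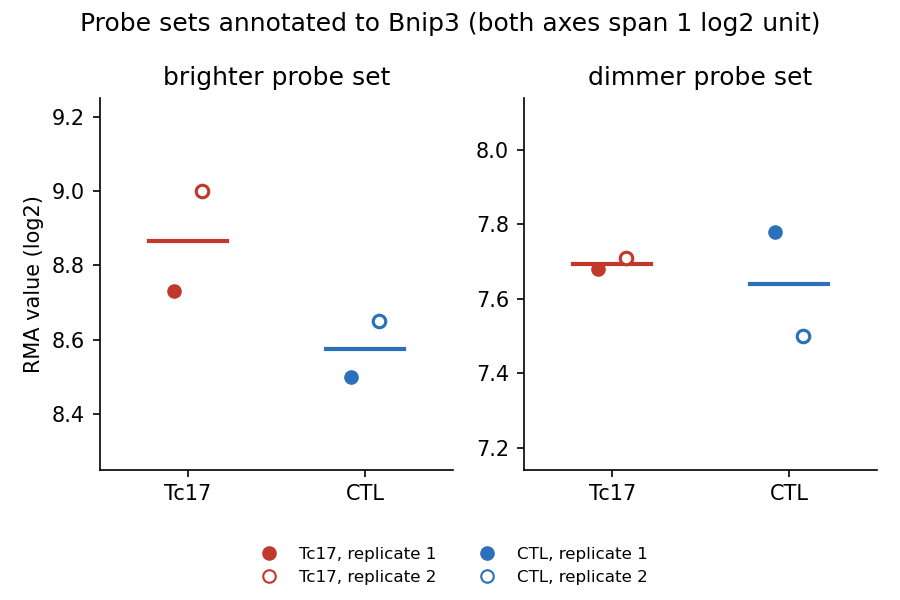
RMA values (vertical axes, log2) of the brighter (left) and dimmer (right) probe set annotated to *Bnip3*, with Tc17 in red and CTL in blue, replicate 1 filled, replicate 2 open, and bars for group means. The groups are apart for the brighter probe set (8.73 and 9.00 against 8.50 and 8.65) and overlap for the dimmer one (7.68 and 7.71 against 7.78 and 7.50).

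Among other regulators of HIF, *Hsp90aa1* was the gene past the threshold. Of 20 listed, which include the other α subunits, the asparagine hydroxylase gene *Hif1an*, partners of VHL in its ligase and coactivators, 18 were measured and tested, 0 rose and 1 fell (5.56% called, against 15.7% of all genes), with a median difference of 0.01. At an unadjusted p under 0.05 there were 7 of 18, against the 27.1% of all genes. The gene that fell was *Hsp90aa1*, a chaperone gene whose product keeps HIF-1α from degradation that does not need VHL. It was at 10.37 and 10.44 on the Tc17 arrays, against 10.99 and 10.96 on the CTL arrays (by 0.57 ± 0.13, limma adjusted p = 0.00984), and the call was lost without Tc17 replicate 1 (-0.54, limma adjusted p = 0.0516) or CTL replicate 1 (-0.56, limma adjusted p = 0.0516).

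Further genes known as HIF-1 targets went both ways. Of 32 listed 31 were measured and tested, and 5 rose and 2 fell, which is 22.6% called against 15.7% of all genes, with a median difference of 0.06. Both shares depend on the filter on dim genes. With the filter at the median, 9 of 29 targets passed, against 2468 of 9969 genes. An unadjusted limma p under 0.05 was found for 16 of 31, against 27.1% of all genes. Without overlap, 13 were higher and 8 lower in Tc17 cells, against 29.6% and 24.8% of all genes. The median size of the difference was 0.34, against 0.17 over all genes tested, which were not matched to the list in brightness. *Aldoc*, a glycolytic aldolase gene, was at 8.59 and 9.27 on the Tc17 arrays, against 6.80 and 6.95 on the CTL arrays (2.05 ± 0.19, 4.15-fold, limma adjusted p = 4.55e-05). *Plod2*, which encodes a lysyl hydroxylase for collagen, was at 6.39 and 6.79 on the Tc17 arrays, against 5.46 and 5.51 on the CTL arrays (1.11 ± 0.15, 2.15-fold, limma adjusted p = 5.51e-04). Both differences were larger than that of any of the 10 pathway genes.

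*Narf* (0.83 ± 0.14, limma adjusted p = 0.00187) and *Plod1*, another lysyl hydroxylase gene (0.64 ± 0.14, limma adjusted p = 0.00934), rose as well. *Plod1* was dim, at 4.12 and 4.08 on the Tc17 arrays, against 3.61 and 3.32 on the CTL arrays. These values lie within the range of the markers of other cell types. The fifth was *Ddit4*, named after its values were seen, which encodes the mTORC1 inhibitor REDD1 (0.45 ± 0.13, limma adjusted p = 0.0448). The call of *Ddit4* was lost without any one array (0.35 to 0.54), with the replicate block (limma adjusted p = 0.0579), with median centring (limma adjusted p = 0.0502) and with every row tested (limma adjusted p = 0.192). That of *Plod1* was lost without CTL replicate 2 (0.49) and with every row tested (limma adjusted p = 0.113).

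The targets that fell were *Ero1a*, an oxidase gene of the endoplasmic reticulum, and *Hmox1*, which encodes the heme-degrading enzyme heme oxygenase 1. *Ero1a* was at 9.23 and 9.39 on the Tc17 arrays, against 10.07 and 10.21 on the CTL arrays (by 0.83 ± 0.13, limma adjusted p = 0.00155). *Hmox1* was at 3.65 and 3.61 on the Tc17 arrays, against 4.60 and 4.16 on the CTL arrays (by 0.75 ± 0.16, limma adjusted p = 0.00747). *Hmox1* did not pass once CTL replicate 1 was left out (-0.53, limma adjusted p = 0.0639).

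The listed target genes of glucose uptake, glycolysis and lactate export were named together after their values were seen. They had differences of both signs, and *Aldoc* alone of the 8 measured passed the test, against 15.7% of all genes. *Slc2a1*, which encodes the glucose transporter GLUT1, differed by 0.00 ± 0.16 (95% interval -0.35 to 0.35), *Pgk1* by -0.05 ± 0.13 (-0.32 to 0.23), *Ldha* by -0.04 ± 0.12 (-0.31 to 0.24) and *Pfkfb3* by 0.00 ± 0.14 (-0.31 to 0.32). The hexokinase gene *Hk2* was lower on both Tc17 arrays than on both CTL arrays (-0.38 ± 0.13, limma adjusted p = 0.0849). *Slc16a3*, a lactate exporter gene (0.42 ± 0.17, limma adjusted p = 0.141), and *Pfkfb4*, a regulator of phosphofructokinase (0.36 ± 0.14, limma adjusted p = 0.109), were higher on both Tc17 arrays than on both CTL arrays. *Pgk1* and *Ldha*, with their small differences, were also lower on both Tc17 arrays. Over all genes tested, the groups did not overlap for 54.4%.

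**Figure D4:**
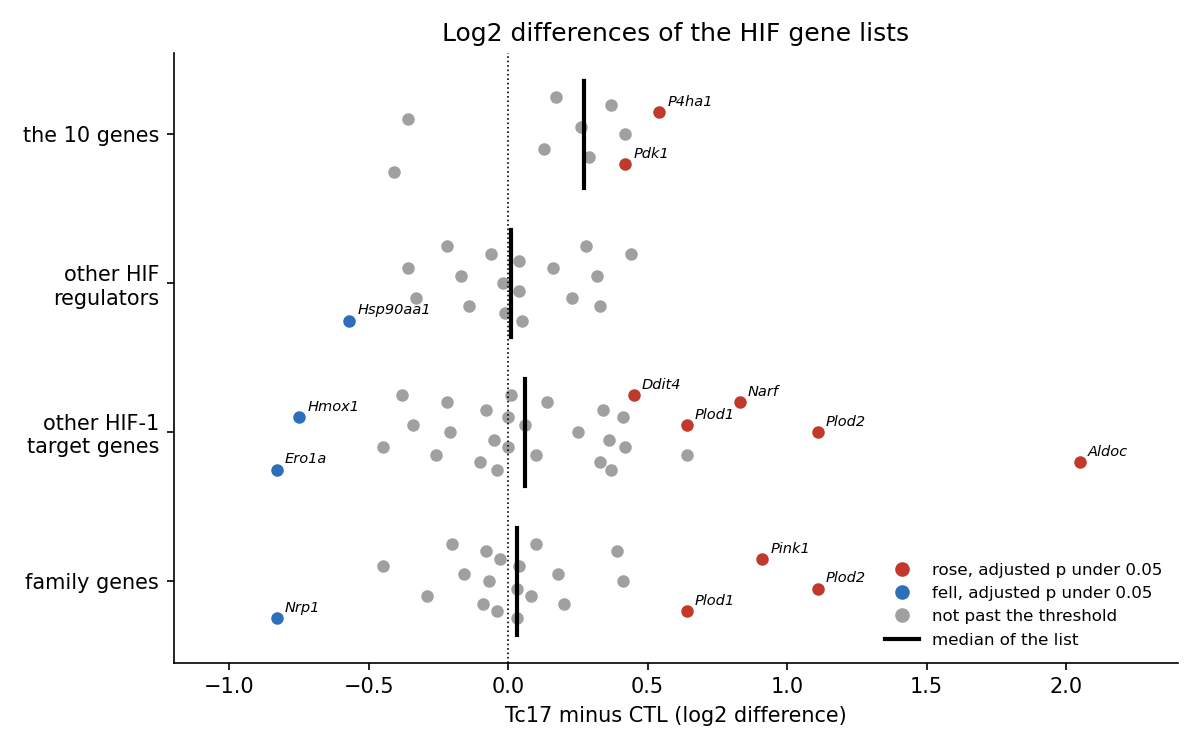
Log2 differences, Tc17 minus CTL (horizontal axis), of the tested genes of 4 lists, each point a gene, red where it rose, blue where it fell and grey where it did not pass, with black bars for list medians. The medians are 0.27 for the 10 genes, 0.01 for other regulators, 0.06 for other targets and 0.03 for family genes, and *Aldoc* (2.05) lies far from the rest.

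Relatives of the target genes were listed too, to show whether a target moved with its family. Of 28 listed 27 were measured, and 22 passed the filter and were tested. *Plod1*, *Plod2*, *P4ha2* and *Bnip3l* stand in this list and in the one before. Of 22 tested, 3 rose and 1 fell, with a median of 0.03, and the 18.2% called lie near the 15.7% of all genes. Among 5 collagen hydroxylase genes tested, *Plod1* and *Plod2* rose, while *P4ha2*, the other main α subunit gene (0.10 ± 0.15, limma adjusted p = 0.744), and *P4hb*, the β subunit gene (0.04 ± 0.13, limma adjusted p = 0.899), did not pass. None of 8 genes of the pyruvate dehydrogenase complex, its other kinases and its phosphatases passed the test in limma, with 1 of 8 at an unadjusted p under 0.05, against 15.7% and 27.1% of all genes. *Pdk3*, another kinase gene of the family, differed by -0.04 ± 0.14 (limma adjusted p = 0.900).

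The mitophagy list held 3 measured genes, and all 3 had higher values on both Tc17 arrays than on both CTL arrays, which held for 29.6% of all genes tested. *Pink1*, whose kinase marks damaged mitochondria, rose, at 5.51 and 5.40 on the Tc17 arrays, against 4.64 and 4.45 on the CTL arrays (0.91 ± 0.13, 1.88-fold, limma adjusted p = 8.82e-04). *Bnip3l*, the closest relative of *Bnip3*, differed by 0.41 ± 0.13 (limma adjusted p = 0.0539) and *Fundc1* by 0.39 ± 0.13 (limma adjusted p = 0.0794).

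Of 9 VEGF ligand and receptor genes, 3 were left out as too dim, and 1 of the 6 tested fell (16.7% called, against 15.7% of all genes). That gene was *Nrp1*, a co-receptor for VEGF and semaphorins, at 3.39 and 3.21 on the Tc17 arrays, against 4.62 and 3.65 on the CTL arrays. The difference of -0.83 ± 0.25 (limma adjusted p = 0.0409) rested on CTL replicate 1, without which it was -0.35 (limma adjusted p = 0.25). It was also lost without either Tc17 array (-0.93 without replicate 1 and -0.74 without replicate 2), and it was -1.32 without CTL replicate 2. With all arrays kept, the call was lost with no filter and with an intensity trend (limma adjusted p = 0.0635 each), with cyclic loess (limma adjusted p = 0.0529), with median centring (limma adjusted p = 0.0505) and with every row tested (limma adjusted p = 0.325).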

How the data were processed

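The authors hybridised total RNA, amplified in 2 cycles of cDNA synthesis and labeled with biotin, to Affymetrix arrays. The deposited log2 values come from RMA, a procedure of background correction, quantile normalization between arrays and summary over the probes of a set. Neither the version of RMA nor its log base was stated in the sources used here, but the range of the values, 1.18 to 13.70, is that of log2. A shift of all transcripts is therefore not visible, and differences of dim probe sets are compressed. The table has no detection calls.

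Of 35557 rows, 21789 were paired with 1 gene symbol, 1621 with several and 12147 with none. Each of 19938 genes was read at its brightest probe set by the mean over the 4 arrays, and 4985 genes under the 25th percentile (2.59) were left out. The unpaired, two-sided contrast of Tc17 minus CTL was fitted by lmFit and eBayes of limma 3.58.1 under R 4.3.3, and p-values were adjusted over 14953 genes by Benjamini-Hochberg. The moderating prior was worth 8.98 degrees of freedom, at an SD of 0.138. The fit was tested on simulated data. For arrays, their number limits the precision, and the smallest p of an exact two-sided permutation test is 0.333 at 2 against 2. Python 3.11.15 and matplotlib 3.10.9 made the plots.

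The members and lists were chosen with earlier results of these data known. Named genes were the members, from each list up to 4 rises and 4 falls past the threshold without overlap, and *Il17f* and *Ifng*. Any further gene was picked with its values in view. Results were recomputed with other filters, with robust moderation on an intensity trend, after cyclic loess or median centring, on means of probe sets, on every row, with a block for the replicate number, and without each array. The other probe set of *Bnip3* was added after seeing the data. Without an array a group has 1 sample, which is assumed to vary like the other group.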

Additional observations from a re-analysis of the deposited data

How the results depend on the processing

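The 10 genes kept the sign of their difference under all alternatives, in 121 values, of which 107 stayed on their side of the threshold, 12 lost it and 2 passed it. Most of the kept signs were fixed in advance and carry no information. Where groups do not overlap, leaving out an array cannot change a sign. Other filters, the intensity trend, the test of every row and the replicate block leave the difference as it is. The count of 2 genes called was 1 with no filter, 1 with median centring, 1 with the replicate block, 0 with every row tested, and 0 to 1 without an array. *P4ha1* was 0.54 and lost with every row tested, and ran from 0.38 to 0.71 without an array. *Pdk1* was 0.42 and lost with no filter, with median centring, with the replicate block and with every row tested, and ran from 0.36 to 0.49 without an array. *Egln2* ran from 0.25 to 0.59 and *Egln3* from -0.62 to -0.11 without an array. Testing every row (35557) gave 506 genes called among 19938, in place of 2342 among 14953, with 0 regulators in place of 1, 1 target in place of 7 and 1 family gene in place of 4. The target still called was *Aldoc* (limma adjusted p = 0.0323) and the family gene was *Pink1* (limma adjusted p = 0.0458). Without an array the count of all genes ran from 1421 to 1924 and that of regulators from 0 to 1. The regulator called without Tc17 replicate 1 was a rise, and so not *Hsp90aa1*. The mean of probe sets gave 7 family genes in place of 4. The cause of these changes was not tested.

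The replicate numbers share only a number. The deviations of Tc17 and CTL arrays with the same number correlated at 0.02 over genes, and the replicate block gave 2322 genes in place of 2342. This correlation does not show whether genes of a pathway move together within a group. Of the 10 genes, all but *Hif1a* (equal) and *Arnt* (6.36 and 6.07) were higher on Tc17 replicate 2 than on replicate 1. The share of all genes for which this holds was not computed, so that the count cannot be read as a trait of the pathway. *Egln3* was at 7.72 and 8.23, and *P4ha1* at 7.62 and 7.95. Whether these genes vary together was not tested, and they are not replicates of a condition. Of 144 values of the other named genes, 25 lost the threshold and 0 changed sign. These other genes were named for groups without overlap, or had none, so that no sign could change when an array was left out. Their kept signs therefore carry little information. With 2 arrays a group, the number of arrays limits the precision.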
